A study of Mus musculus with 2 samples.

Results

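The adrenomedullin system was followed across the cells of juvenile long bone through 6 genes. These were the ligand gene Adm, the receptor gene Calcrl, the accessory genes Ramp1, Ramp2 and Ramp3, and Gpr182, an atypical receptor of endothelium. They were chosen by name, as 6 of the 28380 genes in the count tables, and all 6 reached 20 unique molecules (UMIs) over the endothelial cells (ECs) of both libraries, as did 15971 genes in all.

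The 2 groups had 1 single-cell library each. Control mice carried the genotype Dach1OE +/f, a conditional Dach1 transgene without Cre. Dach1OE mice carried Apj CreERT2 - Dach1OE +/f, in which a tamoxifen-dependent Cre under control of Apj (Aplnr, the apelin receptor gene) switches the transgene on. The study's methods also name an R26-mT/mG reporter allele for this cross, which the labels do not. Both groups were C57BL/6, of both sexes, received tamoxifen on postnatal days 1 and 2 and were analysed on postnatal day 30. Each library pooled femur and tibia cells of 2 mice after depletion of CD45+ and CD117+ cells, and the labels tie no cell to an animal. With 1 library per group there is no replicate check. Intervals below therefore cover counting error only, and no p-value is given.

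Adrenomedullin is a secreted peptide that widens vessels and keeps blood and lymphatic endothelium intact. Its receptor is made of the G-protein-coupled protein CALCRL and a RAMP partner. RAMP1 turns CALCRL into a receptor for the neuropeptide CGRP, whereas RAMP2 and RAMP3 turn it into adrenomedullin receptors, and RAMP3 also steers the receptor back to the cell surface. GPR182 was long listed as an adrenomedullin receptor and is now known to take up chemokines such as CXCL10, CXCL12 and CXCL13 on sinusoidal and lymphatic endothelium. Mice that lack Adm, Calcrl or Ramp2 die as embryos with oedema, while mice that lack Ramp3 survive.

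Positions are those of GENCODE vM21 on build GRCm38, the build of the count tables, which were made with the earlier release vM19. Adm lies at chr7:110627661-110629820 on the plus strand, and its whole span of 2160 bases is also covered by the antisense gene Gm28863. Calcrl lies at chr2:84330626-84425411 on the minus strand and Ramp1 at chr1:91179822-91225196 on the plus strand, neither of them overlapping another gene. Ramp2 lies at chr11:101246028-101259546 on the plus strand and shares 5840 bases with Vps25 on the same strand. Ramp3 lies at chr11:6658521-6677475 on the plus strand and shares 1713 bases with the pseudogene Gm11978 on the other strand. Gpr182 lies at chr10:127747276-127751732 on the minus strand and shares 74 bases with Zbtb39 on the other strand. Reads in exons and introns were both counted, and how strand and shared bases were handled is not given in the sources used here. Over all ECs, Gm28863 held 11 UMIs in Control and 16 in Dach1OE, and Vps25, a gene of the endosomal sorting machinery, held 11 and 13. Reads of Vps25 and Adm's antisense partner may thus be part of the Ramp2 and Adm counts, which was not tested.

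Adm, a known target of hypoxia-inducible factors, and Ramp3, the only receptor gene of the set past 2-fold between the libraries in an EC subtype, are shown by the bases before their RefSeq start sites (build GRCm38.p6, 5′ to 3′, plus strand). Capitals mark the letters ACGTG or GCGTG, the core of the hypoxia response element, and AGGAA, the core bound by ETS factors, on either strand. No 2 of the marked motifs overlap. The first run is chr7:110627407-110627656 and the second is chr11:6658283-6658520, which stops short of the first annotated exon.
Adm: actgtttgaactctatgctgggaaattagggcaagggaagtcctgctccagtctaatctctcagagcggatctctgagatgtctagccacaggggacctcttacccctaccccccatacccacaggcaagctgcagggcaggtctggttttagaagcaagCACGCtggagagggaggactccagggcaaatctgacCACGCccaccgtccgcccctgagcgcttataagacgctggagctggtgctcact
Ramp3: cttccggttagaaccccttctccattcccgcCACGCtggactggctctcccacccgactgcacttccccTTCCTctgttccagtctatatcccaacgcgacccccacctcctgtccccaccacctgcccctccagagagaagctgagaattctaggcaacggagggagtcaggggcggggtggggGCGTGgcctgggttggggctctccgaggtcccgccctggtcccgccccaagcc
The Adm window held 2 hypoxia cores and no ETS core, and the Ramp3 window held 2 hypoxia cores and 1 ETS core. The corresponding 250 bases of Calcrl and of Ramp1 held 0 hypoxia cores and 2 ETS cores each, and both of the Calcrl cores lie inside that gene's own annotated span. Of 32851 promoter windows of that length in RefSeq, 38.6% held a hypoxia core and 60.3% an ETS core, so the letters are common, and a match is not a bound site.

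After cells with fewer than 500 or more than 6000 genes, or with 25% or more mitochondrial UMIs, had been left out, 26466 Control and 29317 Dach1OE cells remained, with medians of 3794 and 4055 UMIs. Cells were put into classes by the number of marker genes detected, with no member and not Dach1 among the markers. The class called osteoblasts covers osteoblasts and osteocytes, with Dmp1 and Phex among its markers, and the 2 were not separated. This gave 9205 Control and 9576 Dach1OE ECs, and 9.85% and 10.5% of cells that passed for several classes were set aside. ECs were divided by their leading markers into sinusoidal bmECs, metaphyseal type H mpECs, arterial aECs, type R rECs, proliferating pECs, tip-like ECs and lymphatic ECs. A further capillary group led by Scgb3a1, whose list was taken from earlier results of these data, had 11 cells in Control and 1628 in Dach1OE. For bmECs, mpECs, aECs, rECs and pECs, every gene of a second, separate marker list was higher than in the other ECs of the same library, in both libraries. The second lists were not exclusive to 1 subtype. In Control aECs 8 of 9 second rEC markers were also higher. In Control tip-like ECs 7 of 8 second mpEC markers and 9 of 10 second aEC markers were higher. In pECs 8 of 8 second mpEC markers were higher in Control and 6 of 8 in Dach1OE. The part of this overlap in the levels and ratios of pECs was not tested. The Scgb3a1 ECs carried 9 of 10 second bmEC markers at a higher level than the other ECs. bmECs made up 47.0% of ECs in Control and 9.51% in Dach1OE, aECs 3.22% and 10.04%, and 26.3% and 38.1% could not be assigned. Levels are given as CPM, the UMIs of a gene per 1000000 UMIs of the class in that library. Dach1 itself stood at 5.02 CPM in Control ECs and 200.02 in Dach1OE ECs, with UMIs in 1.499% and 37.4% of ECs, and at 3.40 and 3.82 in osteoblasts. It was also higher in Dach1OE in mural cells (smooth muscle cells and pericytes), at 4.41 and 11.1, and in marrow stromal cells, at 4.42 and 8.84. The labels of the libraries thus matched the level of the transgene in endothelium, and most Dach1OE ECs had no Dach1 UMI.

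Calcrl, the receptor shared by all 3 accessory proteins, was an endothelial gene in both libraries. ECs held 80.8% of its 8495 UMIs in Control and 75.8% of its 5816 UMIs in Dach1OE. Summed over ECs, its level was 227 CPM (221 to 232, exact Poisson 95% interval) in Control and 143 CPM (139 to 148) in Dach1OE. Among Control subtypes it was highest in rECs at 345 and in lymphatic ECs at 282, 2 values whose intervals overlapped. It then stood at 265 in mpECs, 221 in bmECs, 166 in pECs, 160 in tip-like ECs and 117 in aECs, so that the lowest and highest subtypes differed 2.95-fold. In Dach1OE the order was rECs with 218, bmECs with 216, mpECs with 193, pECs with 122, Scgb3a1 ECs with 109, tip-like ECs with 102 and aECs with 74.9. The 3 highest of these overlapped in their intervals, and arterial cells were lowest in both libraries.

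Outside endothelium Calcrl was low. Leukocytes had 31.3 CPM (19.6 to 47.5) in Control from 22 UMIs, beside 1 UMI of Ramp2, and 15.3 (7.90 to 26.7) in Dach1OE from 12 UMIs. Mural cells, the smooth muscle cells and pericytes that wrap vessels, had 29.7 CPM in Control and 28.3 in Dach1OE, and marrow stromal cells (dpMSCs) had 15.5 and 13.9. Erythroid cells, taken as a class not known for the gene, had 4.26 and 5.30, with a Calcrl UMI in 3.12% and 3.86% of cells at medians of 7004 and 7939 UMIs. In ECs the share was 45.6% and 30.9% at medians of 2709 and 2687 UMIs. Mural cells also carried 543 and 595 CPM of the 10 endothelial class markers, against 10100 and 10451 in ECs. The UMIs of Calcrl were 70.4% (61.2 to 78.6, Clopper-Pearson) of those of Calcrl and Ramp2 together in Control mural cells and 20.8% (20.4 to 21.3) in Control ECs, so the 2 genes did not stand in the endothelial ratio there. In erythroid cells, with 4.26 CPM of Calcrl and 3.15 of Ramp2 in Control, that share was 57.5% (46.4 to 68.0), so the UMIs of these cells did not stand in the endothelial ratio either.

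The accessory genes divided the cells of bone into separate groups. Ramp2, the partner that endothelial adrenomedullin signalling needs, was present throughout endothelium at 862 CPM in Control and 959 in Dach1OE, with a UMI in 81.3% and 82.8% of ECs. Its range over Control subtypes was the narrowest of the 6 genes, from 737 in bmECs to 1207 in rECs, a 1.64-fold span. rECs, lymphatic ECs, aECs and mpECs did not differ beyond neighbouring intervals. Fibroblasts had 173 and 86.6, dpMSCs 66.7 and 69.7, and osteoblasts 4.99 and 5.38.

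Ramp3, the partner linked to receptor recycling, marked a much smaller part of the endothelium. It stood at 217 CPM in Control mpECs and 149 in Dach1OE mpECs, with a UMI in 38.9% and 26.4% of them. Tip-like ECs followed in Control at 99.9 and pECs at 73.6, and aECs had 37.9 and rECs 26.0. The aEC level depended on the gate, with 83.7 under the second marker lists and 23.3 under a stricter gate. Under raw UMIs and other gates the Control rEC level ranged from 21.7 to 46.0. bmECs had 8.30 in Control and 8.03 in Dach1OE, and the Dach1OE Scgb3a1 ECs had 5.23. The Control lymphatic ECs held 0 Ramp3 UMIs in 67 cells, which allows up to 15.4 CPM. Of the 11 classes, only ECs exceeded 5 CPM in either library.

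Ramp1, the CGRP receptor partner, was nearly absent from endothelium, with 2.48 CPM in Control ECs and 2.96 in Dach1OE ECs. It was highest in the leukocytes that had escaped depletion, at 229 and 240. Osteoblasts had 168 and 166, basophils 136 and 118, mural cells 118 and 133, and metaphyseal stromal cells (mpMSCs) 42.8 and 31.4. In chondrocytes the level was 12.5 and 17.1. Under the second marker lists the mpMSC levels were 23.6 and 15.4 and the chondrocyte levels 7.65 and 8.56. Osteoblasts, as a large class, held 42.0% of all Ramp1 UMIs in Control and 40.9% in Dach1OE, while ECs held 1.48% and 1.30%.

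**Figure D1:**
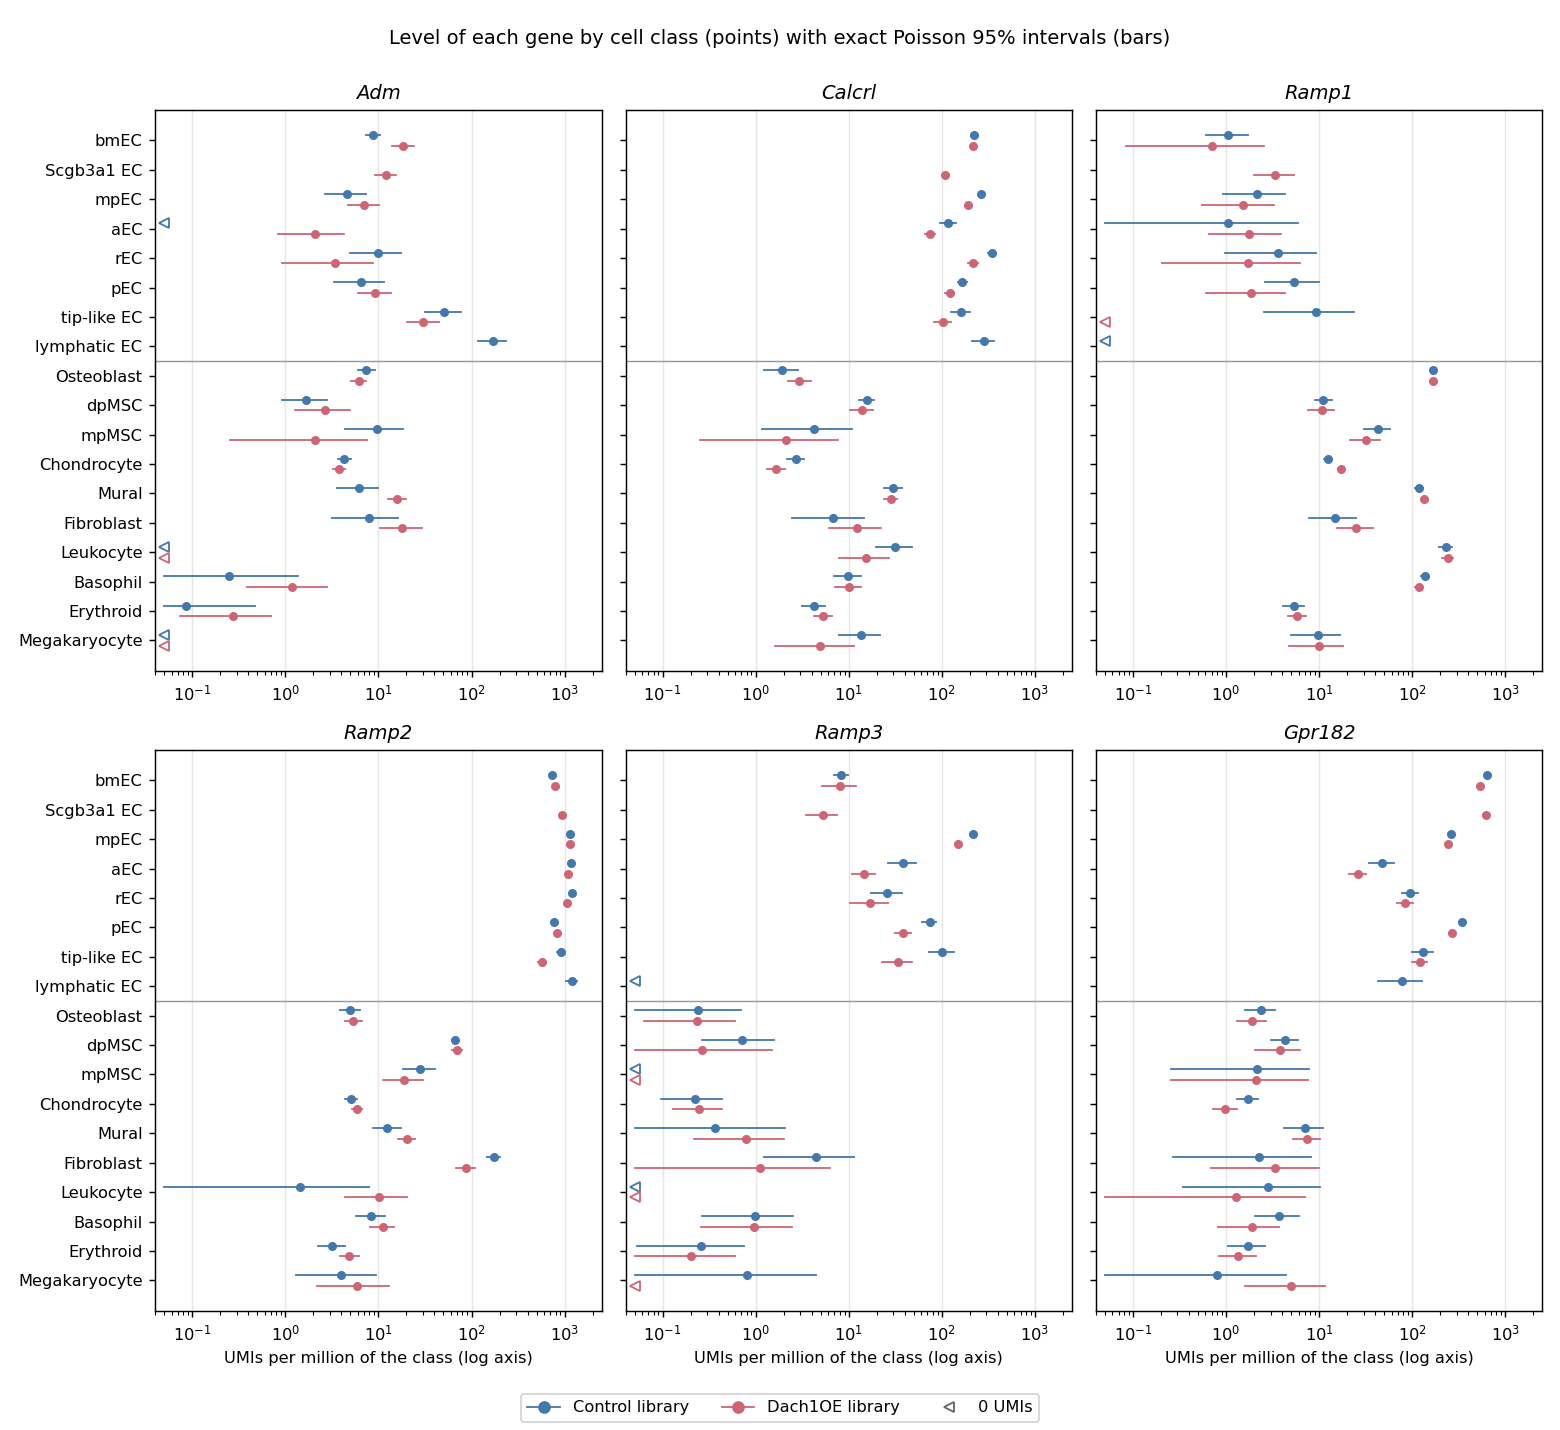
Level of each of the 6 genes (x axis, CPM, UMIs per 1000000 UMIs of the class, log axis) in EC subtypes (above the line) and other classes (below it), for the Control library in blue and the Dach1OE library in red. Bars are exact Poisson 95% intervals, open triangles mark 0 UMIs, and classes under 50 cells are left out. Calcrl, Ramp2 and Gpr182 lie to the right in all EC subtypes, Ramp3 peaks in mpECs, and Ramp1 lies to the right in osteoblasts, mural cells, leukocytes and basophils.

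The make-up of the Ramp UMIs, taken from the same UMI sums, shows the same division. The share of each gene among the 3 is compared between classes, and no scaling by gene length was done. Ramp2 gave 93.7% of the Ramp UMIs of Control ECs and 95.8% of those of Dach1OE ECs. Ramp1 gave 97.0% and 96.7% in osteoblasts, 99.4% and 95.9% in leukocytes, and 90.2% and 86.4% in mural cells. dpMSCs resembled ECs more than osteoblasts in this measure, with Ramp2 at 84.9% and 86.4%, and mpMSCs lay between with 39.4% and 37.5%. Within Control endothelium the share of Ramp3 ran from 0 of 233 Ramp UMIs in lymphatic ECs and 1.112% in bmECs to 15.9% in mpECs. In Dach1OE it was 11.4% in mpECs, 4.40% in pECs against 8.59% in Control, and 1.32% in aECs against 3.11%.

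**Figure D2:**
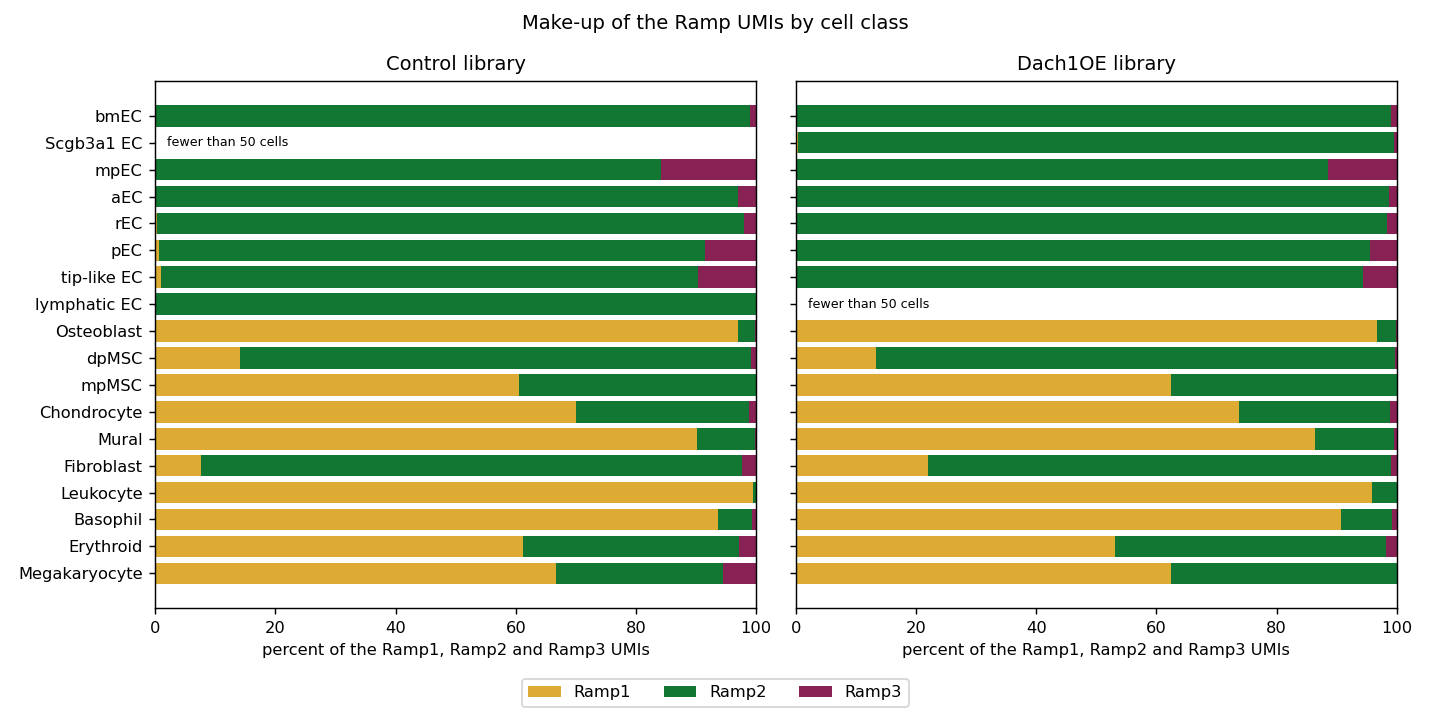
Percent of the Ramp1, Ramp2 and Ramp3 UMIs (x axis) that each gene gives in a class, with the Control library on the left and the Dach1OE library on the right. Ramp2 fills 84.0% of the Control mpEC bar and more of every other EC bar, Ramp3 is widest in mpECs (15.9% and 11.4%), and Ramp1 fills the osteoblast bars (97.0% and 96.7%).

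A working receptor needs CALCRL and a RAMP in the same cell. A UMI of Calcrl together with one of any Ramp gene was found in 39.3% (38.3 to 40.3, Clopper-Pearson) of Control EC profiles and 27.3% (26.5 to 28.3) of Dach1OE EC profiles. When each cell was thinned to 1000 UMIs the shares were 11.3% and 7.92%. Nearly all such EC pairs were of Calcrl with Ramp2, at 38.8% and 27.2%, while Calcrl with Ramp3 was found in 6.42% and 3.57%, and Calcrl with Ramp1 in 0.239% and 0.219%. In mpEC profiles Calcrl with Ramp3 reached 21.2% and 11.9%. Among Leukocyte profiles the pair of Calcrl with Ramp1 was present in 8.55% and 3.92%, and 0 of 117 and 0 of 153 had Calcrl with Ramp2 or Ramp3. In Erythroid profiles, given for comparison, Calcrl with any Ramp was found in 0.133% and 0.284%.

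Adm, the ligand, was a rare transcript in every class. Endothelium held 286 of its UMIs in the Control library (9.45 CPM) and 339 in the Dach1OE library (11.02 CPM). ECs held 39.8% and 37.0% of all Adm UMIs, chondrocytes 21.6% and 19.9%, and osteoblasts 13.1% and 11.6%. Such shares follow the size and depth of a class. Chondrocytes had 4.32 and 3.77 CPM and osteoblasts 7.44 and 6.14, both below ECs. Fibroblasts had 7.87 and 18.0 (10.3 to 29.2) from 7 and 16 UMIs, and mpMSCs 9.62 and 2.10 from 9 and 2 UMIs. The level of Adm within Control endothelium was highest in 2 small subtypes. bmECs, the largest subtype, held the most of the 286 EC UMIs, with 132. Control lymphatic ECs had 169 CPM (116 to 237) from 33 UMIs, and the 27 Dach1OE lymphatic ECs had 110 (50.4 to 209) from 9 UMIs. These UMIs lay in 8 of 67 and 3 of 27 cells, and the intervals do not cover UMIs that share a cell. Tip-like ECs had 51.1 (32.0 to 77.4) in Control and 30.4 (20.04 to 44.2) in Dach1OE, with a UMI in 17.0% and 10.7% of cells. That Dach1OE interval overlapped the one of Dach1OE bmECs, at 18.5 (13.9 to 24.2). Every other Control subtype was under 10 CPM, and the 296 Control aECs held 0 UMIs, which allows up to 3.16. Leukocytes and megakaryocytes held 0 Adm UMIs in both libraries, which in leukocytes allows up to 4.27 CPM in Control and 3.82 in Dach1OE.

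Gpr182, the chemokine-binding receptor, had 86.0% and 83.9% of its UMIs in ECs, beside 82.0% and 82.3% for Ramp2. It was highest in sinusoidal cells, at 641 CPM (629 to 654) in Control bmECs and 532 (506 to 559) in Dach1OE bmECs. The Dach1OE Scgb3a1 ECs, at 613 (593 to 635), were the highest subtype of that library. pECs had 340 and 269, mpECs 262 and 243, tip-like ECs 130 and 120, rECs 94.1 and 83.5, and aECs 47.4 and 26.1. Under raw UMIs and other gates the Dach1OE rEC level ranged from 64.6 to 129.6 and the Control aEC level from 38.4 to 72.4. The span over subtypes was 13.5-fold in Control and 23.5-fold in Dach1OE. Control lymphatic ECs had 76.8 (43.0 to 127), in the lower part of this order. Its low in aECs and rECs and high in bmECs ran opposite to Ramp2 within Control, where bmECs had the least Ramp2.

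Between the libraries, Calcrl, Ramp3 and Gpr182 were lower in Dach1OE endothelium, Ramp2 was slightly higher, and the intervals of Adm and Ramp1 included 0. A log2 ratio of Dach1OE over Control is used below, with a counting interval, and a ratio past 1 or -1 whose interval excludes 0 is taken as past 2-fold. Over all ECs, 0 of the 6 genes passed 2-fold, against 6.24% of the 15971 genes tested. Calcrl, Ramp3 and Gpr182 were lower with an interval that excluded 0, which holds for 18.5% of all genes tested, and Ramp2 was higher, which holds for 25.9%. The log2 ratio was -0.66 (-0.72 to -0.61) for Calcrl, -0.50 (-0.61 to -0.39) for Ramp3 and -0.41 (-0.45 to -0.37) for Gpr182. The ratio was above 0 for the other genes, at 0.15 (0.13 to 0.18) for Ramp2, 0.22 (-0.01 to 0.45) for Adm and 0.26 (-0.20 to 0.72) for Ramp1. The median of all genes tested was 0.029.

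Calcrl was lower in Dach1OE in 5 of the 6 subtypes compared. The exception was bmECs, where 221 and 216 CPM gave -0.03 (-0.16 to 0.09). A Dach1 UMI was found in 13.9% of Dach1OE bmECs, against 28.4% of mpECs, 33.8% of rECs and 45.1% of aECs. It was found in 45.5% of pECs and 53.2% of tip-like ECs, and its part in the bmEC ratio was not tested. The log2 ratio was -0.46 (-0.59 to -0.32) in mpECs, -0.64 (-0.97 to -0.31) in aECs, -0.66 (-0.89 to -0.43) in rECs, -0.45 (-0.68 to -0.22) in pECs and -0.64 (-1.11 to -0.17) in tip-like ECs. Among all genes tested, those lower with an interval excluding 0 made up 9.7% in mpECs, 11% in aECs, 8.28% in rECs, 10.1% in pECs, 6.96% in tip-like ECs and 6.36% in bmECs. Unresolved ECs, where 13.1% of genes were lower, at 234 and 144 CPM, had -0.70 (-0.80 to -0.59). In mural cells the ratio was -0.07 (-0.48 to 0.34). Chondrocytes, at 2.68 and 1.66 CPM, had -0.69 (-1.14 to -0.25), where 14.9% of genes were lower. Some of the intervals of EC subtypes included 0 under alternatives. rECs had -1.08 (-1.49 to -0.68) with Xist UMIs and -0.33 (-0.86 to 0.19) with Y-linked UMIs, and tip-like ECs with Y-linked UMIs had -0.49 (-1.38 to 0.43). After thinning to 1000 UMIs per cell, pECs had -0.12 (-0.65 to 0.43) and tip-like ECs -0.58 (-1.59 to 0.47).

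Ramp3 was lower in 4 of the 6 subtypes, and it was the only receptor gene of the set past 2-fold in any of them. In aECs its level was 37.9 in Control and 14.5 in Dach1OE, a log2 ratio of -1.39 (-2.04 to -0.72), and 7.9% of all genes tested in aECs passed 2-fold. With a stricter gate it was -0.85 (-1.66 to -0.0033), and after thinning to 1000 UMIs per cell -0.77 (-1.94 to 0.50). The summed level of the 8 second mpEC markers in aECs was 6187 in Control and 4424 in Dach1OE, and its part in this ratio was not tested. In tip-like ECs 99.9 and 33.8 gave -1.56 (-2.29 to -0.86), with 5.61% of genes past 2-fold. The summed level of the 10 mural markers in these cells was 107 in Control and 565 in Dach1OE, and its part in this ratio and in those of Calcrl and Ramp2 was not tested. In rECs that sum was 1045 and 792, and its part in the levels and ratios of rECs was not tested either. mpECs, the main site of the gene, had -0.54 (-0.70 to -0.39) and pECs -0.93 (-1.31 to -0.55). Split by Xist and Y-linked UMIs, mpECs had -0.22 (-0.48 to 0.036) and -0.71 (-1.02 to -0.41). pECs with Y-linked UMIs had -0.47 (-1.20 to 0.26) and aECs with Y-linked UMIs -0.71 (-2.10 to 0.92), both with an interval that included 0. In rECs the interval included 0, at -0.61 (-1.51 to 0.26), and bmECs were near even at a level of about 8 CPM. Unresolved ECs also passed 2-fold, with -1.09 (-1.29 to -0.90), where 4.91% of genes did.

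Ramp2 moved little and in both directions. Its log2 ratio was 0.11 in bmECs (0.05 to 0.18) and in pECs (0.01 to 0.20), where 9.35% and 10.2% of genes were higher, 0.00 in mpECs (-0.06 to 0.06), -0.12 in aECs (-0.22 to -0.03) and -0.19 in rECs (-0.30 to -0.08). In cells with Y-linked UMIs it was 0.0017 (-0.13 to 0.13) in bmECs, 0.12 (-0.10 to 0.35) in aECs and 0.0050 (-0.27 to 0.28) in rECs, and in pECs with Xist UMIs it was -0.12 (-0.27 to 0.032). Each of these intervals included 0. Tip-like ECs differed most, with 917 and 569 CPM and -0.69 (-0.88 to -0.50). Outside endothelium, Ramp2 in fibroblasts stood at 173 and 86.6, a log2 ratio of -0.998 (-1.41 to -0.59), where 5.4% of genes were lower, but the order of the libraries turned with the stricter gate, at 98.9 and 110.2. It was higher in mural cells, with 34 and 101 UMIs and 0.69 (0.11 to 1.29), where 9.61% of genes were higher. Erythroid cells, with 37 and 72 UMIs, had 0.63 (0.04 to 1.25), where 11.2% of genes were higher.

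Gpr182 was lower in bmECs, aECs and pECs. Its ratio was -0.27 (-0.35 to -0.19) in bmECs, -0.86 (-1.40 to -0.31) in aECs and -0.34 (-0.49 to -0.18) in pECs, and in mpECs, rECs and tip-like ECs the intervals included 0. In aECs with Xist UMIs only, 25 and 14 UMIs gave -2.44 (-3.50 to -1.44), and in those with Y-linked UMIs only, 5 and 23 UMIs gave -0.09 (-1.52 to 1.66). pECs had -0.19 (-0.44 to 0.058) with Xist UMIs and -0.72 (-0.99 to -0.44) with Y-linked UMIs. After thinning to 1000 UMIs per cell the intervals of aECs and pECs included 0, at -1.15 (-2.35 to 0.10) and -0.24 (-0.60 to 0.12). Unresolved ECs had -0.021 (-0.091 to 0.048). These subtype ratios were mostly smaller than the ratio over all ECs, in which the share of bmECs, the subtype with the most Gpr182 in Control, went from 47.0% to 9.51%. The share of Scgb3a1 ECs, the subtype with the most in Dach1OE, went from 0.12% to 17.0%. When both libraries were given the same mixture of subtypes, the ratio of Gpr182 was -0.057 (-0.13 to 0.01). The same calculation gave -0.39 (-0.48 to -0.29) for Calcrl, -0.76 (-0.87 to -0.64) for Ramp3, 0.048 for Ramp2, with an interval that reached 0, and 0.63 (0.37 to 0.89) for Adm. It rests on 11 Control cells for the Scgb3a1 ECs, and without that subtype Gpr182 had -0.18 (-0.22 to -0.13) and Calcrl -0.40. With Scgb3a1 ECs left out of both libraries and no reweighting, the ratios were -0.65 for Gpr182, -0.59 for Calcrl and -0.26 for Ramp3. Outside endothelium, Gpr182 in chondrocytes stood at 1.73 and 0.974 CPM. Its log2 ratio there was -0.83 (-1.41 to -0.26), where 14.9% of genes were lower.

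Adm passed 2-fold in 1 of the 4 subtypes where it had 20 UMIs. Its level in bmECs was 8.69 in Control (132 UMIs) and 18.5 in Dach1OE (53 UMIs), a log2 ratio of 1.09 (0.60 to 1.56), where 2.1% of genes passed 2-fold. In cells with Xist UMIs only the ratio was 1.54 (0.77 to 2.27), from 42 and 26 UMIs, and in cells with Y-linked UMIs only it was -0.040 (-1.57 to 1.205), from 41 and 6 UMIs. After thinning to 1000 UMIs per cell it was 0.77 (-0.19 to 1.65). Mural cells also passed 2-fold for Adm, with 6.24 and 15.9 CPM and 1.35 (0.58 to 2.20), against 2.81% of genes. Under raw UMIs and other gates the Dach1OE mural level was as low as 10.5 CPM. Cells with Xist UMIs held 7 and 13 UMIs there and cells with Y-linked UMIs 4 and 35, or ratios of 0.01 (-1.42 to 1.58) and 2.23 (0.74 to 4.18). The difference between these values was not tested, and sex cannot be told apart from the individual mouse.

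Since the pooled mice were of both sexes, Xist and Y-linked UMIs split most cells by the sex of the animal, and with 2 mice per library by the animal itself. Over all ECs the log2 ratio of Calcrl was -0.77 (-0.86 to -0.68) in cells with Xist UMIs and -0.67 (-0.78 to -0.56) in cells with Y-linked UMIs. Of the 5 subtypes with 50 such cells of each kind in each library, Calcrl was below 0 in both sexes in 4 by its value alone, bmECs being the other. Gpr182 was -0.38 (-0.45 to -0.32) and -0.48 (-0.55 to -0.42), and below 0 in both sexes in 4 of 5 by its value alone. In aECs with Y-linked UMIs the interval of Gpr182 included 0, as it did in mpECs of both sexes. Ramp3 was -0.47 (-0.65 to -0.29) and -0.15 (-0.36 to 0.06), and below 0 in both sexes in 3 of 5 by its value alone.

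**Figure D3:**
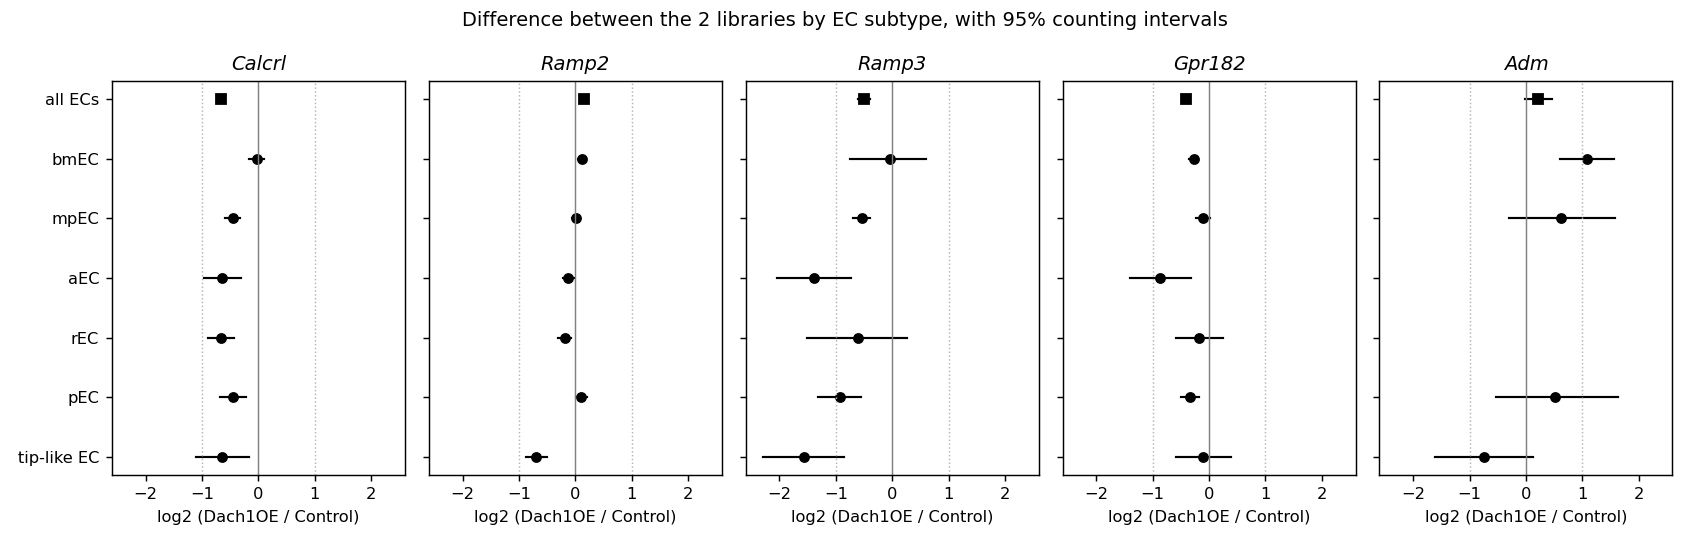
Log2 ratio of Dach1OE over Control (x axis) for 5 genes over all ECs (squares) and in each subtype (circles), with 95% counting intervals as bars and dotted lines at 2-fold. Points are drawn where a gene had 20 UMIs. The interval of Calcrl lies left of 0 in every subtype drawn but bmECs, Ramp3 lies past -1 in aECs and tip-like ECs, and Adm lies past 1 in bmECs.

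Within the Dach1OE library, ECs with a Dach1 UMI were set against ECs without one, 3579 against 5997 cells with medians of 3305 and 2404 UMIs. Cells of 1 library are not replicates, and a deeper cell has a Dach1 UMI more often. Calcrl stood at 112 CPM in the former and 169 in the latter, a log2 ratio of -0.59 (-0.68 to -0.50), beside 227 in Control ECs. Ramp3 stood at 21.3 and 53.3, with -1.32 (-1.52 to -1.13), beside 55.3 in Control. Ramp2 stood at 959 and 960, with 0.00 (-0.03 to 0.03). Gpr182 was higher in the cells with Dach1, with 0.13 (0.08 to 0.18), the opposite direction to the ratio between the libraries. Of all genes tested in this comparison, 11.7% were lower and 12% higher with an interval excluding 0, and 2.34% passed 2-fold.

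The comparison was repeated within 7 subtypes. Calcrl was lower in cells with a Dach1 UMI in 4 of 7 subtypes, which were mpECs (-0.61), aECs (-0.42), rECs (-0.50) and pECs (-0.71). The share of all genes lower in those was 7.33%, 4.6%, 4.74% and 6.42%. Ramp3 was lower in mpECs (-1.29, -1.61 to -0.98), pECs (-0.77) and tip-like ECs (-1.26), where 4.33% of genes were lower. Gpr182 was higher in 5 of 7, from 0.27 in bmECs to 1.16 in aECs, the others being mpECs, pECs and tip-like ECs. Genes higher made up 4.65% in bmECs, 7.9% in mpECs, 5.57% in aECs, 5.97% in pECs and 4.58% in tip-like ECs. For Ramp2 the interval included 0 in all 7, with ratios between -0.09 and 0.05.

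**Figure D4:**
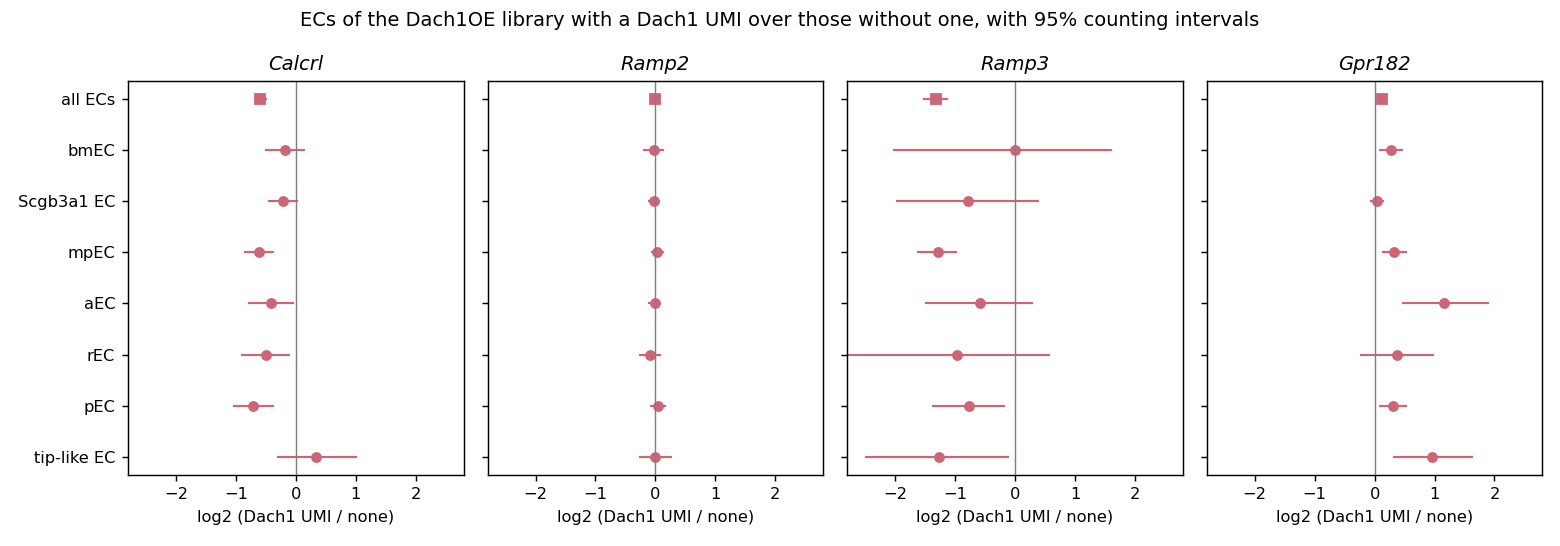
Log2 ratio (x axis) of the level in Dach1OE ECs with a Dach1 UMI over that in Dach1OE ECs without one, for all ECs (squares) and each subtype (circles), with 95% counting intervals as bars. Calcrl and Ramp3 lie mostly left of 0, Ramp2 lies on 0, and Gpr182 lies right of 0.

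The other genes of the pathway were taken from a list fixed with earlier results of these data known. The remaining ligands of the family were at or near 0 in ECs, with 7 and 3 UMIs for Adm2, 0 and 1 for Calca, 0 and 0 for Calcb and 1 and 0 for Iapp. Pam, the enzyme that amidates adrenomedullin, had 251 and 257 CPM over all ECs, a log2 ratio of 0.034 (-0.012 to 0.080). In rECs it fell from 1006 to 565 CPM, with -0.83 (-0.97 to -0.69), and in bmECs it was 0.18 (0.056 to 0.30). Mme, the membrane peptidase neprilysin, was at 5.55 and 4.19, a log2 ratio of -0.40 (-0.75 to -0.06). In bmECs Mme was past 2-fold the other way, with 50 and 21 UMIs and 1.16 (0.35 to 1.92), and in rECs it was past 2-fold lower, with 18 and 5 UMIs. Ackr3, an atypical receptor that clears both adrenomedullin and CXCL12, was past 2-fold higher in Dach1OE ECs, with 28.1 and 121 CPM, or 2.10 (1.997 to 2.21). It was past 2-fold in bmECs (1.81), mpECs (2.20), aECs (1.04) and pECs (2.84), of which mpECs had 3.26% and pECs 4.73% of genes past it, and under it in rECs (0.49, 0.21 to 0.77) and tip-like ECs (0.58, 0.27 to 0.90). In osteoblasts Ackr3 was even, with 48.8 and 49.3. Megakaryocytes had 1.62 and erythroid cells -1.05, both past 2-fold, where 4.89% and 2.32% of genes were. Ratios of Ackr3 were 0.69 in chondrocytes and 0.43 in fibroblasts, where 13.1% and 7.16% of genes were higher. Mural cells had -0.53, where 7.17% of genes were lower. Each of these intervals excluded 0, and those of dpMSCs, mpMSCs and basophils included it.

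Of the chemokines taken up by GPR182, Cxcl12 was past 2-fold higher in ECs, with 229 and 556 CPM and 1.28 (1.24 to 1.32), and Cxcl10 was lower with -0.94 (-1.09 to -0.80). By subtype Cxcl10 had -0.48 (-0.79 to -0.19) in bmECs, 0.24 (-0.41 to 0.90) in mpECs and 0.85 (0.30 to 1.43) in pECs. Its level in Control was 52.7 CPM in bmECs, whose share of ECs was lower in Dach1OE, and 37.5 over all ECs. The part of that share in the ratio of Cxcl10 over all ECs was not tested. Cxcl12 was highest among EC subtypes in aECs, at 1907 and 2507, and dpMSCs, for which it served as a class marker, held 37115 and 30909. In rECs it stood at 350 and 1449, a log2 ratio of 2.05 (1.89 to 2.21) where 6.29% of genes passed 2-fold, and in bmECs at 127 and 109. Cxcl13 had 5 and 1 UMIs. Calcr, the calcitonin receptor, was past 2-fold lower but rested on 23 and 9 UMIs, and Crcp, a CGRP receptor component, was even at 0.07 (-0.12 to 0.27).

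Of 19 genes for the stimulatory G protein, cAMP and arrestin arms, 18 were in the tables, 5 were lower and 5 higher with an interval excluding 0, 0 passed 2-fold, and the median log2 ratio was 0.02. Over all genes tested, 18.5% were lower, 25.9% higher and 6.24% past 2-fold. Among these 18, Nos3, the endothelial nitric oxide synthase, stood at 79.4 and 138 CPM, with 0.80 (0.72 to 0.87). It was 1 of the 5 higher genes and was picked after its value was seen, and none of the 5 lower is named. The shares of EC subtypes differed between the libraries, and their part in the ratio of Nos3 was not tested. Of 12 hypoxia genes that are often regulated with Adm, 3 were lower, 7 higher and 3 past 2-fold, with a median of 0.24. The lower genes were Pdk1 with -0.65 (-0.77 to -0.54), Ndrg1 with -0.56 (-0.61 to -0.51) and Hif1a, a subunit of the hypoxia-inducible factor, with -0.24 (-0.31 to -0.17). The 3 past 2-fold were Egln3, an oxygen-sensing prolyl hydroxylase, with 1.71 (1.51 to 1.92), Ankrd37 with 1.34 (1.03 to 1.65) and Car9, a carbonic anhydrase, with 1.14 (0.28 to 2.06) from 17 and 38 UMIs. In bmECs, where Adm passed 2-fold, 0 of the 11 hypoxia genes with 20 UMIs were lower, 5 higher and 2 past 2-fold, with a median of 0.40. The shares of all genes tested there were 6.36%, 9.35% and 2.1%. The intervals of Hif1a, Epas1 and Ndrg1 included 0 there, and Car9 had 8 and 0 UMIs. Egln3 had 1.46 (0.99 to 1.91) and Ankrd37 1.31 (0.51 to 2.07). The median of the hypoxia genes was nearer 0 in the other subtypes, at 0.031 in mpECs with 2 lower and 2 higher, -0.12 in aECs with 3 and 3, -0.072 in rECs with 1 and 1, -0.026 in pECs with 2 and 3, and 0.015 in tip-like ECs with 2 and 2. Past 2-fold were 1 of 11 in mpECs, 4 of 11 in aECs and 0 of 11 in rECs. In pECs 2 of 11 and in tip-like ECs 2 of 9 were. In the same order of subtypes, 3.26%, 7.9%, 6.29%, 4.73% and 5.61% of all genes passed 2-fold. Genes lower made up 9.7%, 11%, 8.28%, 10.1% and 6.96%, and genes higher 12.2%, 11.2%, 10.7%, 10.2% and 7.75%. In mural cells, where Adm also passed 2-fold, 0 of 11 hypoxia genes were lower, 4 higher and 0 past 2-fold, with a median of 0.34. There 7.17% of all genes were lower, 9.61% higher and 2.81% past 2-fold. The hypoxia genes were not split by Xist and Y-linked UMIs, and a link between them and Adm was not tested.

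**Figure D5:**
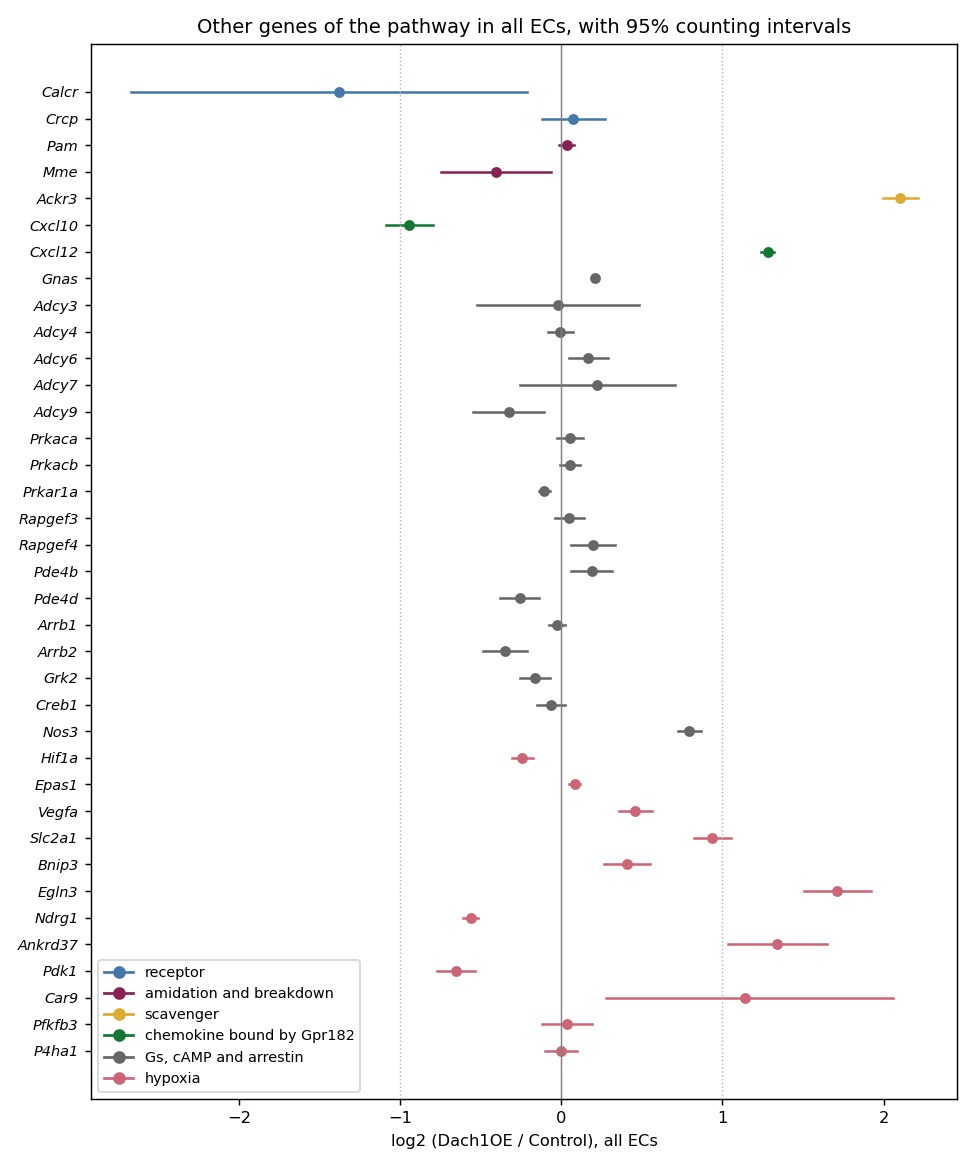
Log2 ratio of Dach1OE over Control in all ECs (x axis) for the genes of the fixed pathway list with 20 UMIs, coloured by their role, with 95% counting intervals as bars and dotted lines at 2-fold. Ackr3 (2.10), Egln3 (1.71), Ankrd37 (1.34), Cxcl12 (1.28) and Car9 (1.14) lie past 1, Calcr lies past -1, and the genes of the cAMP arm (grey) lie between.

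Over 34 class-by-library profiles of at least 50 cells, the genes whose level on the log2(CPM + 1) scale ran closest to each member were named as a description. For Calcrl these were Tek, a gene also used in a gate, with Pearson's r = 0.95, Prkch with 0.94 and Kank3 with 0.94. For Ramp2 they were Palmd (0.97), Card10 (0.96) and Adcy4 (0.96), the last of which encodes an adenylyl cyclase. Ramp3 ran closest to Pcdh17 (0.93), to Apln, the apelin gene and an mpEC gate marker (0.92), and to Lrrc55 (0.92). Gpr182 ran closest to Lrg1, a second-list bmEC marker (0.98), Fam167b (0.98) and Pabpc1l (0.97). For Ramp1 they were Ptprs (0.85), Satb1 (0.83) and Rtl6 (0.80), and for Adm they were Zfp248 (0.81), Tbc1d16 (0.80) and Tshz2 (0.76). The profiles share libraries, include subtypes of 1 class and differ in depth.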

How the data were processed

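Single-cell RNA sequencing was made with the BD Rhapsody system. Per the file headers, the authors ran the BD Rhapsody WTA pipeline version 1.11 on GRCm38 (mm10 in the submitters' processing notes) with GENCODE vM19, counting intronic reads and using refined cell calling. The deposited counts are molecules per cell and gene after the pipeline's error correction, and the deposited raw molecule counts served as an alternative. The tables held 28720 Control and 32028 Dach1OE cells with 143986818 and 166999989 UMIs. The 879 cell labels that both libraries shared were of the same class in 17.2% of cases, against 17.3% from the class sizes alone. No doublet caller was run, and cells passing several class gates were set aside.

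Class gates counted detected markers, with the threshold at the first valley of the pooled histogram or, where there was none, at the middle of the list's length. EC subtypes were given by the highest mean z score, with a lead of 0.15 and 3 detected markers. UMIs were summed per library and class. Levels had exact Poisson intervals, ratios conditional binomial intervals and shares Clopper-Pearson intervals, all at 95% and for counting error only. A floor of 3 counts was used for a gene with 0 UMIs. Ratios were read for genes with 20 UMIs over both libraries in classes of 50 cells. The split of tip-like ECs by Xist and Y-linked UMIs fell below 50 cells of a kind and is given as an exception. The ratio calculation was tested on simulated Poisson counts, drawn independently for each gene. That simulation had no cells, so it does not cover UMIs that share a cell or differences between mice. The named genes were the 6 members, the ligands, scavengers and processing enzymes of a fixed pathway list, its genes past 2-fold in all ECs, and the 3 genes most like each member among those with 200 UMIs. Cxcl10, Crcp, Cxcl13, Nos3, Pdk1, Ndrg1, Hif1a, Epas1 and the Vps25 and Gm28863 genes were named after their values were seen. Members, marker lists and pathway lists were chosen with earlier results of these data known, and gate thresholds were set after marker counts had been seen. Python 3.11.15, scipy 1.17.1 and edgeR 4.0.16 (TMM factors only) were used.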

Additional observations from a re-analysis of the deposited data

Results flagged for a closer look

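Ramp2 differed between subtypes in the direction of its ratio of Dach1OE over Control. It was higher in bmECs (0.11) and pECs (0.11) and lower in aECs (-0.12), rECs (-0.19) and tip-like ECs (-0.69), each with an interval that excluded 0. In cells with Y-linked UMIs only it was 0.0017 in bmECs, 0.12 in aECs and 0.0050 in rECs, and in pECs with Xist UMIs only it was -0.12, each with an interval that included 0. In tip-like ECs the split gave -0.49 with Xist UMIs and -0.86 with Y-linked UMIs. In dpMSCs the ratio of Ramp2 was 0.54 in cells with Xist UMIs and -0.73 in cells with Y-linked UMIs, a split in which sex and the individual mouse cannot be told apart. Neither difference was tested, since each group has 1 library.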

How the results depend on the processing

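Over all ECs, the sign of the ratio held for Adm, Calcrl, Ramp2, Ramp3 and Gpr182 under every setting tried. Raw UMIs, TMM scaling, 1000 to 6000 genes, second marker lists and a stricter gate moved none of the 6 beyond its interval. The same mixture of subtypes gave 0.63 for Adm, -0.39 for Calcrl, -1.04 for Ramp1, 0.048 for Ramp2, -0.76 for Ramp3 and -0.057 for Gpr182, and without Scgb3a1 ECs 0.49, -0.40, -0.32, 0.027, -0.78 and -0.18 in that order. Leaving Scgb3a1 ECs out with no reweighting gave -0.59 for Calcrl, -0.26 for Ramp3 and -0.65 for Gpr182. Cells with Xist UMIs only gave -0.77 for Calcrl, -0.50 for Ramp1 and 0.088 for Ramp2, and cells with Y-linked UMIs only gave 1.13 for Ramp1, 0.25 for Ramp2, -0.15 for Ramp3 and -0.48 for Gpr182. Thinning to 1000 UMIs gave 0.11 for Ramp2, -0.73 for Ramp3 and -0.34 for Gpr182, and the mean of per-cell shares gave 0.12, -0.64 and -0.33. Keeping cells that passed several gates gave 0.085 for Ramp2, -0.62 for Ramp3 and -0.46 for Gpr182. Mitochondrial UMIs under 10% gave 0.18 for Ramp2, and leaving out cells above the 95th percentile of UMIs gave -0.36 for Gpr182. Thinning took the share of ECs with Calcrl and a Ramp UMI to 11.3% in Control and 7.92% in Dach1OE. The share of genes past 2-fold was 5.02% with no filter on low counts. Of 307 values of 28 subtype ratios under alternatives, 28 had the opposite sign. For 24 of these the reported interval included 0, as for Ramp3 and Calcrl in bmECs, Ramp2 in mpECs and Gpr182 in rECs and tip-like ECs. The other 4 came from the split by Xist and Y-linked UMIs: Ramp2 in pECs with Xist UMIs (-0.12), and with Y-linked UMIs Adm in bmECs (-0.040), Ramp2 in aECs (0.12) and Ramp2 in rECs (0.0050). The cause was not tested. Of 360 values of 120 levels under raw UMIs and other gates, 62 moved beyond their interval and 21 by over 1.5 times, among them Ramp2 in Control fibroblasts (98.9 with a stricter gate), Ramp3 in Control aECs (23.3 and 83.7) and, under the second lists, Ramp1 in mpMSCs (23.6 and 15.4) and chondrocytes (7.65 and 8.56). The settings without Scgb3a1 ECs and with cells of several gates were added after the data had been seen. The second lists kept few of the main chondrocytes (18.6% in Control) and leukocytes (17.1%). Leaving out a replicate was not possible with 1 library per group. No paired analysis was possible because each group has 1 library and no test was made.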
